A study of Mus musculus with 4 samples.

Results

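Among the CTCF peaks of adult mouse heart, 827 of 54309 had their summit inside a coding exon, away from gene starts. They come from the conservative peak list, built from both pools by the authors and kept at 0.05 or less in irreproducible discovery rate (IDR), which measures how well calls agree between replicates. A peak was kept where its summit lay in the coding sequence of a protein-coding gene (GENCODE M21, mm10) and more than 1 kb from any annotated transcription start site (TSS). The choice within this list used position only, so motif and strand were open to test and signal to description. The IDR threshold had already acted on agreement and on signal, so agreement between pools is described only. The 827 summits lay in 817 distinct intervals on 20 chromosomes and in 780 genes. They were set against the 20172 summits of the same list in introns of protein-coding genes, also more than 1 kb from any TSS.

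CTCF is a DNA-binding protein with a row of zinc fingers, and together with the ring-shaped cohesin complex it anchors chromatin loops. Its motif has a direction, and looped sites often carry motifs that face each other. A site inside a coding exon has to serve as protein code and as a binding sequence at once. In human cells, CTCF bound in an exon or just after it has been linked to slowing of RNA polymerase II and to inclusion of that exon in the mRNA.

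Binding was mapped by chromatin immunoprecipitation and sequencing in heart tissue of adult female B6CASTF1/J mice aged 2 months. These are first-generation hybrids of C57BL/6J and CAST/EiJ, and no group was treated or carried a mutation. Pool G (biological replicate 2) and pool H (biological replicate 1) each joined 2 heart biosamples and were sequenced as 2 technical libraries, which gives 4 libraries and 2 biological replicates. The signal is the peak caller's score as deposited, without a stated unit, and levels are set against each other within 1 list only, apart from the pool values given side by side. Read depth is unknown, all intervals given are 95% and cover counting error over peaks or motif copies only, and peaks are not replicates of one another. The lists hold no expression values, so the tissue label was not checked against marker genes, and the alleles of the parental strains were not separated.

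Examples of the cores under these summits are shown because they let codon frame and binding sequence be read together. Each is a stretch of the coding strand of the gene, from the reference genome (C57BL/6J) of the GRCm38.p6 build, starting at the first base of a codon. Capitals mark the CTCF core, the 12-base centre of the motif, at its position; where the core lies on the other strand of the gene, the capitals are its reverse complement. The first set holds the strongest exact core on the coding strand for each codon position at which the core can begin. These lie at chr13:58288063-58288110 (minus strand), chr1:34218487-34218534 (plus) and chr2:91115236-91115283 (plus).
Kif27: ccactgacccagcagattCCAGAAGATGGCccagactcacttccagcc
Dst: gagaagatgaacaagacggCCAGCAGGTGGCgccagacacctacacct
Spi1: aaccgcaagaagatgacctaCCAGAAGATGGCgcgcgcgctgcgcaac
The second set holds the same choice for cores on the other strand, at chr8:71596099-71596146 (plus), chr11:114789209-114789256 (plus) and chr3:8664676-8664723 (minus).
Pgls: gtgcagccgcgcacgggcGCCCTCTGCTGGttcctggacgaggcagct
Kif19a: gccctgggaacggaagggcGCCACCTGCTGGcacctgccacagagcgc
Hey1: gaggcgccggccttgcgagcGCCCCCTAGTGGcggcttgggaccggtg
The third set comes from genes of the heart lists described further on, at chr3:127012703-127012750 (minus) for Ank2, chr3:88158085-88158132 (plus) for Mef2d and chr2:76715157-76715204 (minus) for Ttn. The first pair has exact cores and Ttn has 1 mismatch.
Ank2: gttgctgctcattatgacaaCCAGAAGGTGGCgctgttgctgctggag
Mef2d: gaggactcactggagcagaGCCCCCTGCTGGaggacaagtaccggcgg
Ttn: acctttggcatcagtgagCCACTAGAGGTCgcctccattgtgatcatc

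Coding sequence carried more CTCF summits for its length than introns did. The 827 summits in 25.1 Mb of coding sequence gave 33.0 per Mb, against 23.2 per Mb for 20172 summits in 868 Mb of introns. The ratio was 1.42 (exact interval 1.32 to 1.52). Outside soft-masked repeats, a restriction chosen after seeing the data, it was 1.43 (1.33 to 1.54). These densities count summits with and without the CTCF core. As searched below, no core was found at 382 of the coding summits and at 5698 of the intronic ones. An exact core was found at 133 and 7725. Density was not worked out by core, so the ratio does not stand for sites with a core. Within coding sequence, internal coding exons held 61.4% of the summits (508) but had the lowest density. Counted on 1 transcript per gene, internal coding exons had 28.0 summits per Mb (25.6 to 30.6), first coding exons 45.2 (32.9 to 60.4), last coding exons 44.3 (38.4 to 51.0) and the coding exons of genes with only 1 had 44.0 (33.3 to 57.0). Internal coding exons thus had a density below the intervals of the other 3 classes, which overlapped one another.

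Exon length moved with these densities. Coding exons of up to 100 bp had 28.1 summits per Mb, those of 100 to 150 bp 27.2, those of 200 to 500 bp 37.2 and those of 500 to 1000 bp 44.4. Exons over 1000 bp came back to 33.8 per Mb, so density did not grow with length throughout. The coding exon that held a summit had a median length of 202 bp and a median rank of 7 in its transcript (quartiles 3 and 13), with exon 304 of 312 in Ttn as the highest rank. The nearer exon end was 64 bp from the summit at the median. Peak width was 349 bp at the median, wider than the median coding exon under them.

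**Figure D1:**
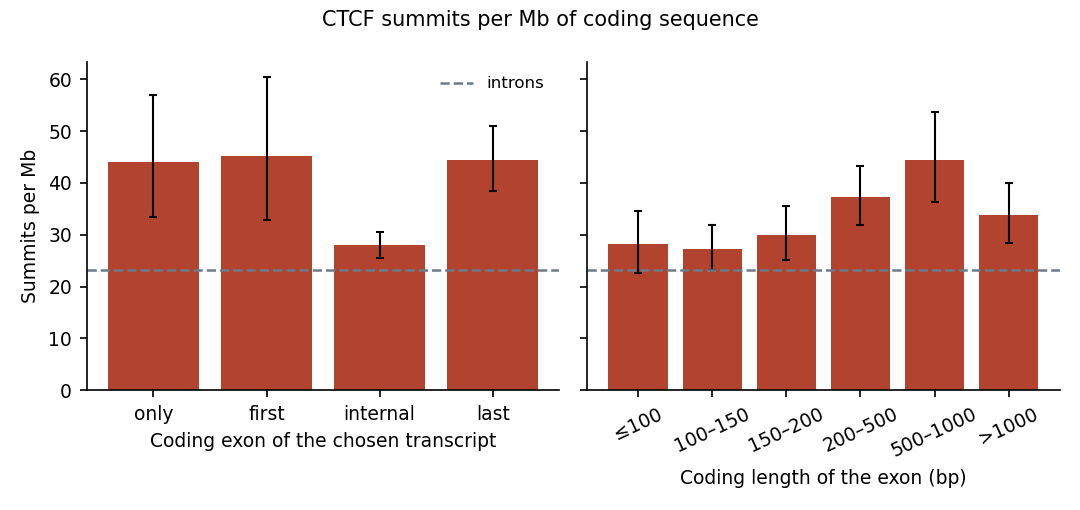
Summits per Mb of coding sequence more than 1 kb from any TSS, by place of the coding exon (left) and by its coding length (right), on 1 transcript per gene. Bars are 793 summits over eligible length with exact Poisson intervals, and the dashed line is the intronic density of 23.2 per Mb; internal coding exons stand lowest on the left at 28.0 per Mb.

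Exons absent from at least 1 coding transcript that spans them carried 83 of the 827 summits (interval of the share 8.07% to 12.3%). They made up 9.10% of eligible coding sequence. This class takes in alternative last exons as well as skipped exons, which were not told apart. Their density was 36.2 summits per Mb (28.8 to 44.8), against 29.8 (27.1 to 32.8) for exons present in every one of several coding transcripts. The intervals overlapped. A further 312 summits lay in genes with only 1 annotated coding transcript over that position, at 36.9 per Mb (32.9 to 41.2), where such absence cannot be seen. The peak lists hold no RNA, so inclusion of these exons in heart was not measured.

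Coding exon peaks were about as strong as intronic ones. Their median signal was 262 (quartiles 133 and 518), against 263 (129 and 554) for intronic peaks and 286 for all peaks. At or above the median of all peaks were 395 of them, 47.8% (44.3 to 51.2). The sign of the difference from introns depended on the list, and outside soft-masked repeats the coding exon median was lower, 269 against 341 in introns. Their range was 11.6 to 852.

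A smaller share of coding exon peaks than of intronic peaks held the CTCF core. The core was searched on both strands, with at most 1 mismatch and its centre within 100 bp of the summit, and 445 coding exon peaks had it, 53.8% (50.3 to 57.2). Of the intronic peaks, 14474 had it, 71.8%, and of all peaks 66.1%. The odds ratio was 0.459 (0.399 to 0.528), with a two-sided Fisher's exact test p of 1.08e-26 and 4.32e-26 after Benjamini-Hochberg adjustment over 4 tests. An exact core was present in 133 coding exon peaks, 16.1% (13.6 to 18.8), against 38.3% of intronic peaks and 33.0% of all peaks. At the mean density of such copies, 5.04% of windows of 201 bp in coding sequence and 4.60% in introns would hold a core with at most 1 mismatch. Both kinds of peak therefore carried it far above these mean levels of all coding sequence and all introns. Levels near the peaks, or at like GC content, were not counted.

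Base composition and repeats moved with this difference. The 301 bp around a coding exon summit had a median GC content of 56.1% and 8 CpG dinucleotides, against 45.8% and 3 around intronic summits. Soft-masked repeats held 25 coding exon summits, 3.02%, and 28.7% of intronic ones. Outside repeats the core was present in 53.0% of coding exon peaks and 63.6% of intronic peaks, an odds ratio of 0.644 (0.559 to 0.743; Fisher's exact test p = 2.53e-09). At up to 45% GC the core share was 69.7% (59.6 to 78.5) in coding exon peaks, against 78.6% (77.8 to 79.5) in intronic ones. At 45 to 50% GC it was 54.7% (44.8 to 64.4) against 71.3% (70.0 to 72.4), and at 50 to 55% it was 59.6% (51.6 to 67.3) against 63.9% (62.3 to 65.4). From 55 to 60% GC the shares were 57.8% (50.7 to 64.7) and 57.9% (55.4 to 60.4), and above 60% they were 40.5% (34.4 to 46.7) and 46.6% (40.9 to 52.3). The intervals were apart only at 45 to 50% GC, overlapped in the other 4 bands, and the part of GC content in the difference was not tested.

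Peaks with a core were stronger than peaks without one. The median signal was 463 for the 133 coding exon peaks with an exact core, 316 for the 312 with 1 mismatch and 182 for the 382 with none. Intronic peaks had 280, 343 and 183. Exact cores in coding exons therefore went with a higher signal than exact cores in introns, while peaks without a core were alike in their medians. The sets with an exact core differed in repeats, as 53.6% of the intronic summits were soft-masked, against 6.77% of the coding exon ones. The part of repeats in this signal difference was not tested. The core share grew with signal in both groups. In the lowest signal quartile of all peaks it was 34.4% of coding exon peaks, against 61.5% of intronic ones. In the second quartile 110 of 220 coding exon peaks had a core, against 68.0% of intronic ones. In the third the shares were 58.5% and 75.0%, and in the highest 77.1% and 84.6%. The core centre lay 7.5 bp from the summit at the median, and within 20 bp in 393 of 445 peaks.

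**Figure D2:**
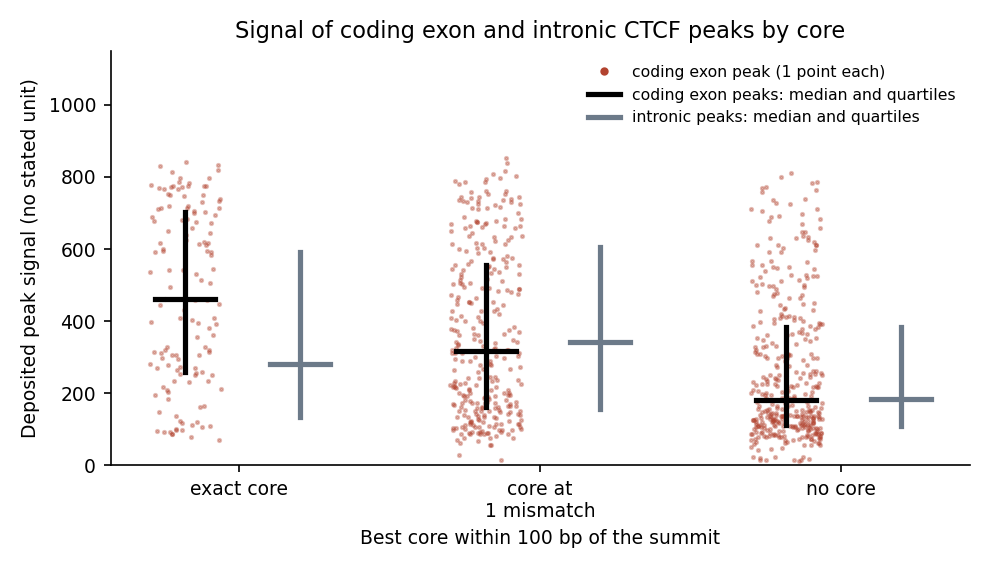
Deposited signal (no stated unit) of each coding exon peak (red points) by its best core, with medians and quartiles of coding exon peaks (black) and intronic peaks (grey). Coding exon medians are 463, 316 and 182 from exact core to no core, against 280, 343 and 183 in introns.

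**Figure D3:**
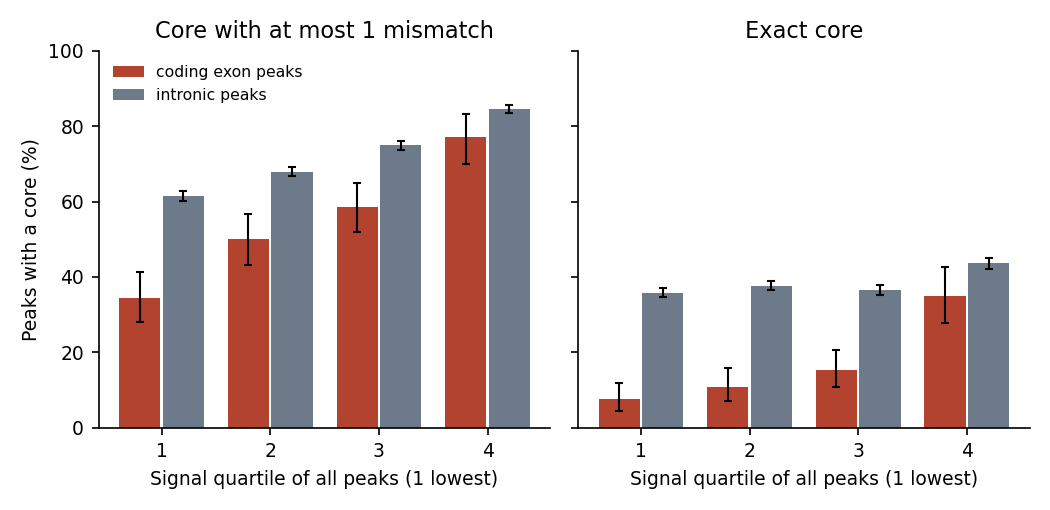
Share of peaks with a core by signal quartile of all peaks, for coding exon peaks (red, left of each pair) and intronic peaks (grey), with exact binomial intervals; left panel at most 1 mismatch, right panel exact cores. In the lowest quartile 34.4% of coding exon peaks and 61.5% of intronic peaks have a core, and in the highest 77.1% and 84.6%.

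Where the core had 1 mismatch, the mismatch fell most often on position 3. That position took 103 of 312 mismatches, 33.0%, followed by position 12 with 15.7%, position 1 with 11.5% and position 6 with 10.9%, counted from the 5′ end of the core on its own strand. Of the mismatches inside the coding exon, 77 fell on the first, 113 on the second and 94 on the third base of a codon. The codon base follows from the core position of the mismatch and from the codon position at which the core begins. Both of these were uneven. Neither count was made for unbound copies with 1 mismatch, so no trait of bound sites is read from them.

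About 1 in 3 exact cores in coding exons was bound. Exact copies stood at 16.1 per Mb of coding sequence, against 37.4 per Mb of introns, and outside soft-masked repeats at 15.0 against 9.67. Among exact copies more than 1 kb from a TSS, 130 of 404 in coding exons lay within 100 bp of a summit, 32.2% (27.6 to 37.0), against 7797 of 32454 in introns, 24.0% (23.6 to 24.5). The odds ratio was 1.50 (1.22 to 1.85; two-sided Fisher's exact test p = 0.000219, adjusted 0.000439). This turned round outside soft-masked repeats, where 116 of 358 copies in coding exons were occupied, 32.4%, against 3185 of 5916 in introns, 53.8%. There the odds ratio was 0.411 (0.327 to 0.516; Fisher's exact test p = 2.88e-15). Copies with at most 1 mismatch outside repeats went the same way, with 7.27% of 6078 occupied in coding exons and 11.5% of 78996 in introns (odds ratio 0.604, Fisher's exact test p = 2.70e-26). Both of these restrictions were chosen after seeing the data. The part of read placement in repeats was not tested.

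The letters of the core moved with occupancy in the same way in both kinds of sequence. At position 5, the only one at which the core allows every base, exact copies outside repeats with G were occupied in 8.60% of 93 cases in coding exons and in 19.4% in introns. Copies with T were occupied in 53.1% of 32 cases in coding exons and in 74.3% in introns, those with C in 47.7% and 62.5%, and those with A in 23.2% and 42.9%. Coding exons held a larger share of the little occupied G copies, 26.0% against 15.9% in introns, and a smaller share of the T copies, 8.94% against 23.1%. With the occupied share of each exact word as in introns, 160.6 of the 358 copies would have been occupied, 44.9%, where 116 were.

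The bases that follow the core also moved with occupancy. Several printed exact cores run on with gc on their own strand (Dst, Spi1, Ank2, and on the other strand Pgls, Kif19a and Hey1). This was counted after those sequences had been seen. These cores were picked under peaks and are themselves among the occupied copies counted. Of 42 exact copies in coding exons followed by GC on the strand of the core, 37 were occupied, 88.1% (74.4 to 96.0). Of the 362 copies followed by other bases, 93 were occupied, 25.7% (21.3 to 30.5). In introns outside repeats the shares were 92.2% of 702 copies and 48.7% of 5214. The coding exon counts take in soft-masked copies and the intronic counts do not. Between these unlike sets, copies followed by GC were mostly occupied in either place, and the lower occupancy of coding exons stood among the rest. With GCT after the core, 17 of 18 copies in coding exons and 92.2% of 358 in introns outside repeats were occupied.

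Slightly fewer cores lay on the coding strand of their gene than on the other strand. Of the 445 cores, 199 were on the coding strand, 44.7% (40.0 to 49.5), and 246 on the other (exact binomial test against 50%, two-sided p = 0.0291, adjusted 0.0388). No member lay in genes of both strands. The call was lost for exact cores alone, of which 62 of 133 were on the coding strand (46.6%, exact binomial p = 0.488), more than 5 kb from a TSS (43.6%, p = 0.0732) and outside soft-masked repeats (45.2%, p = 0.0522). Coding sequence itself supplied the strands about equally, with 3244 copies of at most 1 mismatch on the coding strand and 3206 on the other. Of these, 6.72% were occupied on the coding strand and 7.89% on the other. That comparison, added after seeing the data, passed no test (odds ratio 0.841, 0.697 to 1.01; Fisher's exact test p = 0.0765). Of the exact copies, 62 of 201 on the coding strand were occupied, 30.8%, against 68 of 202 on the other, 33.7%, which did not differ beyond counting error (odds ratio 0.879, 0.579 to 1.34; Fisher's exact test p = 0.594, adjusted 0.594). Median signals were 352 on the coding strand and 344 on the other.

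The codon position at which the core began was uneven, and so was the supply. On the coding strand, 63 cores began at the first base of a codon, 30 at the second and 90 at the third; on the other strand, counted along the gene, these were 56, 108 and 63. Codon position was given only to the 410 of 445 cores that lay wholly inside the coding exon. Exact copies present in coding exons, bound or not, numbered 67, 21 and 113 on the coding strand and 57, 84 and 61 on the other. The counts under peaks take in cores with 1 mismatch. Exact cores alone numbered 17, 11 and 31 under peaks on the coding strand and 18, 28 and 21 on the other. On each strand the most common position under peaks was thus also the most common among exact copies. The supply of copies with 1 mismatch was not counted by codon position. On the coding strand 25.4%, 57.1% and 29.2% of the copies were occupied, where the 57.1% rests on 21 copies (34.0 to 78.2), and on the other strand 31.6%, 33.3% and 36.1%.

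**Figure D4:**
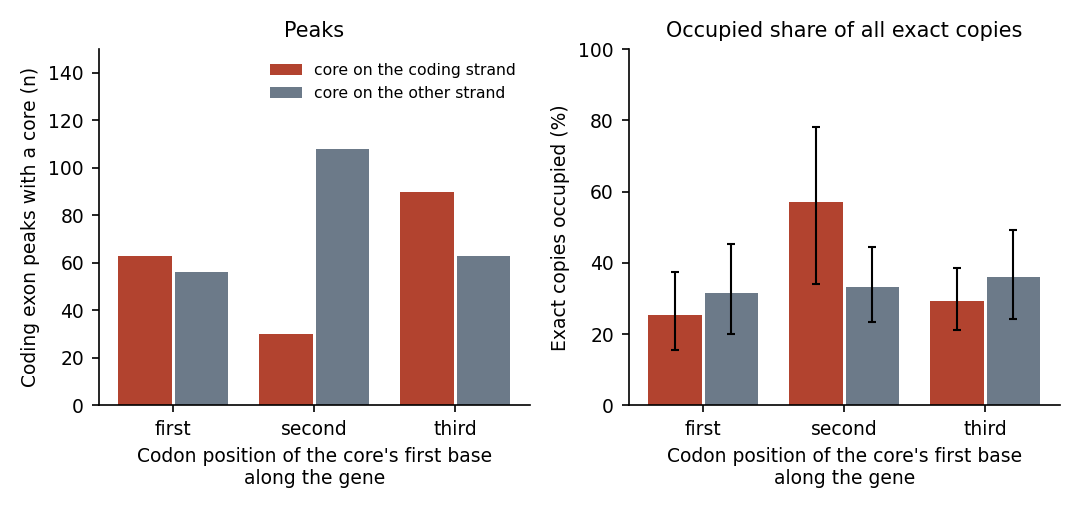
Left, number of coding exon peaks by the codon position at which their core begins along the gene, for cores on the coding strand (red, left of each pair) and on the other strand (grey). Right, occupied share of all exact copies of the core in coding exons, with exact binomial intervals; apart from the 57.1% of 21 copies, the shares lie between 25.4% and 36.1%.

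The pools gave like signals at these summits. Taking for each summit the nearest ranked candidate within 100 bp, the median signal was 153 in pool G and 118 in pool H. Both pools had a candidate at 808 peaks, and the ratio of pool G to pool H was 1.25 at the median (quartiles 1.14 and 1.38). Of the coding exon peaks, 763 overlapped a peak of the thresholded pool G list, 92.3%, and 741 one of pool H, 89.6%, against 91.4% and 89.6% of all peaks. Both lists held 711, and 34 were in neither. IDR chose the peaks for agreement, so these shares are a description. At an IDR of 0.01, 792 remained, 95.8%, against 95.4% of all peaks. The ratio departed over 2-fold from the median of all peaks in 5 coding exon peaks, 0.619%, against 0.403% of all peaks, and none of the 5 had a core.

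**Figure D5:**
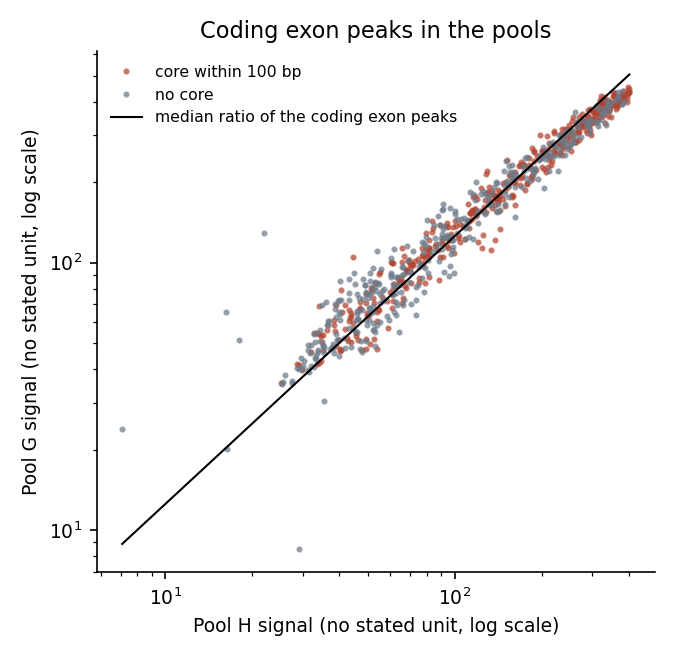
Signal of 808 coding exon peaks in pool G against pool H, both as deposited on log axes, with a line at their median ratio of 1.25. Most points follow the line; the few far from it have no core (grey).

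The highest ratio was in Synpo2l, which encodes a Z-disc protein of striated muscle, with 130 in pool G and 21.9 in pool H. The next highest was in Rragd, a Rag GTPase that signals to mTORC1, with 65.4 in pool G and 16.2 in pool H. The lowest was in Acot11, an acyl-CoA thioesterase, with 8.52 in pool G and 29.1 in pool H. The next lowest, in Cspg4, the NG2 proteoglycan of pericytes, was within 2-fold of the median, with 112 in pool G and 134 in pool H. The Synpo2l peak is the weaker of a pair of summits 224 bp apart in 1 interval, the stronger of which had a signal of 683.

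Of the 12 strongest coding exon peaks, 10 had a core. Neurog2, a proneural transcription factor, led with 852 (452 in pool G and 400 in pool H), in the only coding exon of the gene. Pgls, which encodes 6-phosphogluconolactonase of the pentose phosphate pathway, had 842 (445 in pool G and 401 in pool H). Ccr10, a chemokine receptor, had 838 (436 in pool G and 402 in pool H). Hey1, a repressor induced by Notch signalling, had 832 (433 in pool G and 403 in pool H), and Spi1, the blood cell factor PU.1, had 830 (434 in pool G and 399 in pool H). These 5 lie in the last or only coding exon. Next came Dnaic1 (820), Spata31d1d (817), Crh (814), Itgb7 (810), Ccdc194 (808), Tmc4 (803) and Mms22l (800), of which Itgb7 and Mms22l had no core. Several of these genes are known from nerve or blood cells, and a strong peak in their exons says nothing of their expression in heart. The strongest peak of a first coding exon was in Myo15b, an unconventional myosin gene, at 754.

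The weakest 3 had no core. Acot11 had 13.9, Cyp2s1 (a cytochrome P450) 13.7 and Tdp1 (a DNA repair phosphodiesterase) 11.6, and the last pair had no pool H candidate within 100 bp.

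The threshold on IDR removed peaks at both ends of the signal scale. The ranked list of both pools held 2307 candidates in coding exons by the same position rule, of which 1480 stood under the threshold. Between a signal of 133 (the lower quartile of the members) and 800, all 609 candidates passed. Above 800, 11 of 19 passed, and 8 with signals of 809 to 868 did not. These include Camk2d, the main calcium/calmodulin-dependent kinase of heart muscle (834), Gdf15, a stress-induced cytokine (809), Numa1 (842) and Zfp219 (835), which are named after their values were seen. Hence the 12 strongest members are not the 12 strongest candidates, and 5 of them were found in the second list of both pools, 6 in pool G and 6 in pool H.

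The core share was higher farther from a TSS, and signal had no steady trend with distance. Summits in coding sequence within 500 bp of a TSS had a median signal of 189 and a core in 32.9%. Just outside the rule, 188 summits in coding sequence at 500 to 1000 bp from a TSS had a median signal of 305 and a core in 43.1%. Just inside, 124 summits at 1000 to 1500 bp had 264 and 47.6%. The median signal was 314 at 1500 to 2000 bp, 277 at 2000 to 5000 bp and 296 at 5000 to 10000 bp, with a core in 53.3%, 53.6% and 54.2%. Beyond 10 kb, 197 summits had 224 and 57.9%. In all, 882 summits in coding sequence were left out for lying within 1 kb of a TSS.

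Most genes with a coding exon summit had 1. Of 780 genes, 730 had 1 summit, 49 had 2 and 1 had 3, and 4 summits lay in the coding sequence of more than 1 gene. Among protein-coding genes with eligible coding sequence, 4.08% had a summit. Those genes had more such sequence, a median of 1.53 kb against 0.905 kb for all genes, and 43.6% of them (40.1 to 47.2) also had a CTCF peak within 1 kb of a TSS, against 33.9% of all genes. Gene length was not taken out of that difference.

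Syne1, which encodes the giant nuclear envelope protein nesprin-1, had 3 summits, in exons 47, 55 and 129 of 146. Their signals were 246, 305 and 89.6, and none had a core. In several genes with 2 summits both lay in 1 exon about 200 bp apart, with one far weaker. Crh had 814 and 57.4 at 213 bp, Fzd7 507 and 15.3 at 199 bp, Foxc1 445 and 42.5 at 201 bp, and Kif19a 784 and 23.5 at 205 bp. Whether such a weaker summit is a site of its own was not tested. Keeping only the strongest summit of each interval left 800 coding exon peaks.

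Genes of the heart lists were hit in small numbers. Of 29 sarcomere genes 3 had coding exon summits, 10.3% (2.19 to 27.4), against 4.08% of all genes. Titin, the giant spring of the sarcomere, had 2, at 378 (199 in pool G and 178 in pool H) and 316, both with a core. Desmin (Des), the muscle intermediate filament, had 92.9 (51.6 in pool G and 40.0 in pool H), with a core at 1 mismatch. Per length these genes stood at 20.8 summits per Mb (5.68 to 53.4), against 33.0 for all coding sequence.

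Among 26 genes of excitation and calcium handling 4 were hit, 15.4% (4.36 to 34.9), against 4.08% of all genes. Per length they stood at 46.3 summits per Mb (15.0 to 108), an interval that takes in the 33.0 of all coding sequence. Ank2, whose ankyrin-B holds ion transporters in place, had the strongest, at 408 (238 in pool G and 170 in pool H) in exon 17 of 46. Its exon is part of 3 of 4 transcripts. Itpr3, an IP3 receptor, had 261 and 144, Cacna1c, the L-type calcium channel, had 160 and Atp2a2, the SERCA2 calcium pump, had 137. Ank2 and Cacna1c had a core at these peaks, as did the weaker summit of Itpr3.

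Among the gene lists, cardiac transcription factors were hit most often for their length. Of 24 genes 7 had a summit, 29.2% (12.6 to 51.1), against 4.08% of all genes. Against 33.0 per Mb of all coding sequence, their 9 summits in 20.6 kb gave 438 per Mb (200.2 to 831). That interval takes summits as independent, while Foxc1 and Mef2a held 2 each, those of Foxc1 201 bp apart in 1 peak interval. No list of transcription factors in general was counted, so a trait of cardiac ones cannot be told from one of such genes at large. Hey1 had 832, Mef2d 543 (283 in pool G and 261 in pool H), Foxc1 445 (220 in pool G and 229 in pool H) and Mef2a 344, and Irx5, Irx4 and Foxc2 made up the rest. Hey1, Mef2d and the weaker of 2 Mef2a summits had a core, 3 of 9, against 53.8% of all coding exon peaks. GC content was high at some of these summits, and the 301 bp around that of Foxc1 held 40 CpG and were 75.7% GC.

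Other families are set beside the 4.08% of all genes that were hit and the 33.0 summits per Mb of all coding sequence. Notch and low-density lipoprotein receptor genes were hit in 4 of 20, with Notch3 at 763, Lrp1 at 620 and Notch2 at 218; the fourth, Lrpprc at 303, is a mitochondrial RNA-binding protein that the name prefix brought in. Of 15 axonemal dynein genes 5 were hit, led by Dnah1 at 720, and of 108 voltage-gated and related channel genes 13, led by Kcnk15 at 612. Extracellular matrix genes were hit in 8 of 73, led by Hmcn2 at 567 and the laminin gene Lama4 at 465. Of 99 cadherin superfamily genes 8 were hit, led by Cdh22 at 684, and 3 of these 8 were clustered protocadherins of 55. Of 29 plexin and semaphorin genes 3 were hit, Sema4b, Sema4a and Sema4c, and none of their 4 summits had a core. Keratins were hit in 3 of 51 (5.88%), mucins in 1 of 12 and chromatin regulators in 3 of 54 (5.56%), led by Kmt2a at 735. Keratins and chromatin regulators thus stood near the share of all genes. Per length, the intervals of all these families took in 33.0 summits per Mb except that of the channel genes, at 63.7 (34.8 to 107).

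At the low end, zinc finger genes were hit in 8 of 462, 1.73% (0.750 to 3.38), at 14.8 summits per Mb, led by Zfp503 at 725. Odorant and vomeronasal receptor genes were hit in 0 of 435, which allows up to 0.844% (exact upper bound), with 406 kb of eligible coding sequence. Both families are rich in close copies of one another, and the part of read placement in these low counts was not tested.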

How the data were processed

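Peak lists on mm10 were deposited by the authors, who made them from pool G, pool H or both, per the readme texts that come with the samples. Neither aligner nor caller is named in the sources used here, and a control alignment of the authors was not analysed here. The deposited signal of a peak is a score without a stated unit, and a second deposited score is the scaled IDR, where 540 stands for 0.05 and 830 for 0.01. Other deposited values, the summit offsets, gave summit positions. The members, gene lists, tests and the rule for named genes were chosen with earlier results of these data known, and no pattern already known from them is offered as independent evidence.

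Summits were placed on GRCm38.p6 (RefSeq) with GENCODE M21. Coding exon meant any coding interval of a protein-coding gene, and intronic meant inside such a gene and outside every exon. One transcript per summit or gene was taken by APPRIS rank, then CCDS, then coding length. The core is a 12-base consensus with 32 exact words; the best match, then the nearest, was used. A copy counted as occupied within 100 bp of a summit, and overlap meant at least 1 bp. Shares have exact binomial and densities exact Poisson intervals of 95%. Tests were Fisher's exact test and an exact binomial test, both two-sided, adjusted over 4. Named genes were the 12 strongest and 3 weakest members, the gene with at least 3 summits, the strongest per exon class and per strand and codon position, up to 4 per gene list, and the extremes of the pool ratio; the result for 1 gene so chosen is not reported here. Code was tested on a simulated chromosome with planted cores. Tests used scipy 1.17.1 under Python 3.11.15, tables pandas 2.3.3 with numpy 2.4.6, and figures matplotlib 3.10.9. Alternatives were other lists, IDR 0.01, a TSS distance of 5 kb, other transcript sets, 1 summit per interval, an exact core and a window of 50 bp; restrictions on repeats and mismatched copies were added after seeing the data.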

Additional observations from a re-analysis of the deposited data

How the results depend on the processing

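No paired analysis was possible because the lists are pooled over technical libraries and carry no replicate number; for the same reason no single library could be left out, and the list of each pool alone stands for leaving out the other. The higher density of coding sequence kept its direction in all 9 alternatives (ratios 1.32 to 1.46), and the lower share of peaks with a core in all 11 (odds ratios 0.309 to 0.644). The number of coding exon peaks fell to 376 with a TSS distance of 5 kb and was 769 to 932 otherwise. The log2 difference in median signal from introns was positive with the second list (0.12), with pool G (0.015) and with 1 summit per interval (0.038), and was −0.068 at 5 kb and −0.34 outside soft-masked sequence; the cause was not tested. The share of cores on the coding strand lost its call at 5 kb (43.6%), with exact cores (46.6%) and outside soft-masked sequence (45.2%), each with fewer cores tested. Occupancy of exact copies in coding exons against introns lost its call at 5 kb (odds ratio 1.14, on fewer copies) and reversed outside soft-masked sequence (0.411, and 0.604 with at most 1 mismatch). Occupancy by strand passed no test, and its odds ratio was 1.08 with the second list. For occupancy the exact core was already the choice reported. The lists give no read depth, so weak sites missing from them cannot be told from unbound ones.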
